A study of Mus musculus with 9 samples.

Results

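The genes described here are 34 fibroblast and extracellular matrix genes of the newborn mouse esophagus: collagens, small proteoglycans, elastic fibre proteins, adhesive matrix proteins and surface markers of fibroblasts. They were chosen as a list of names, and each non-control probe under one of those names was taken if the scanner software rated its sample signal well above background on 2 or more of the 9 arrays. A probe was found for 33 of the 34 genes, and Col6a3 was not analysed here. The 33 genes had 60 probes, of which 58 were kept. All 58 were well above background on all 9 arrays, and the other 2 probes, one each of Fbln5 and Vcan, were above it on none. In all, 22648 genes were tested in the series.

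RNA of the esophagus of P0 mice of the C57BL/6J background was hybridised to 2-colour Agilent whole-genome arrays, with the sample in the Cy5 channel and a universal mouse reference RNA, made from 11 cultured mouse cell lines, in the Cy3 channel of every array. The groups were wild type (n = 4), p63-/- (n = 3, here p63 knockout) and p63-/-;Cdx2 (n = 2, here p63 knockout with Cdx2). The last group carried the p63 knockout together with a Villin-Cdx2 transgene, named for the promoter of villin, a gene of intestinal epithelium. p63 (gene Trp63) is the transcription factor of the basal layer of squamous epithelia, and Cdx2 drives intestinal identity. The labels do not say which exons of Trp63 were removed, give no sex, and do not say whether an array held 1 esophagus or a pool. P-values therefore measure the spread between arrays as deposited. The labels name the cell type as epithelium, while their protocol starts from the tissue, using an RNA kit meant for fibrous samples. Wild type replicate 4 carries a source name of a p63-/- mouse beside a title and genotype of wild type and was kept as wild type. For Krt14 this array read 1.31 on the log2 ratio scale, beside 1.02, 1.12 and 1.09 on the other wild-type arrays and −1.16 to −0.99 in the knockout.

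The extracellular matrix is built mainly by fibroblasts, which secrete collagen chains that assemble into triple helices, are trimmed outside the cell and are cross-linked into fibrils. Small leucine-rich proteoglycans bind the fibrils and set their thickness, while elastin laid on fibrillin microfibrils gives tissue its recoil. In the esophagus this material makes up the lamina propria, the submucosa and the sheaths around muscle, so its RNA in a tissue extract comes largely from outside the epithelial layer where p63 acts. In a bulk extract, fewer fibroblasts and less matrix RNA per fibroblast cannot be told apart.

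Gsn and Col6a1 were the 2 members that passed the test in any comparison, and Col1a2 encodes a chain of the most abundant fibrillar collagen, so the stretches of 130 bases before their RefSeq start sites are shown (assembly GRCm38.p6). RefSeq gives 3 start sites for Gsn, at chr2:35256229-35256358, chr2:35266614-35266743 and chr2:35282250-35282379, all on the plus strand. The Col6a1 stretch is chr10:76726045-76726174 on the minus strand, and that of Col1a2 is chr6:4505488-4505617 on the plus strand. All are printed 5′ to 3′, and the capitals mark GGGCGG in Gsn, TGANTCA in Col6a1 and CCAAT in Col1a2, each on either strand.
Gsn start 1: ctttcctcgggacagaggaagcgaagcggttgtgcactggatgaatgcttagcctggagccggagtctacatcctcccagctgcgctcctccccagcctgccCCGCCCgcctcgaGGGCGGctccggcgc
Gsn start 2: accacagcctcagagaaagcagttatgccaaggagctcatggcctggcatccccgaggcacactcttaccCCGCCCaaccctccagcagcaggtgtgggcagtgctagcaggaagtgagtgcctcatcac
Gsn start 3: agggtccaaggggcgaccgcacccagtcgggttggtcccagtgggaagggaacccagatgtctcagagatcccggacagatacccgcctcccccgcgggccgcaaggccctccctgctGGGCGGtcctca
Col6a1: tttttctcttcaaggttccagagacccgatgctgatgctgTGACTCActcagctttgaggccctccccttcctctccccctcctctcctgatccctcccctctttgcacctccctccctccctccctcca
Col1a2: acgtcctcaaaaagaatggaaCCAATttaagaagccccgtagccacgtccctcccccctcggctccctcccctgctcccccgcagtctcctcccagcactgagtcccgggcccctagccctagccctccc
The letters GGGCGG are those of a GC box, TGANTCA those of an AP-1 site, and CCAAT those of the CCAAT box. The probe of Gsn lies at chr2:35163287-35163346 (plus strand, mm9) and that of Col6a1 at chr10:76171899-76171958 (minus strand, mm9). Each gene has 1 probe, so the arrays do not tell the Gsn start sites apart.

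Promoter windows were held for 20 of the 34 genes. Within the 250 bases before the start, on either strand and in any window of a gene, GGGCGG stood in 11 of the 20 members (55.0%) and in 35.4% of 27025 genes. CCAAT stood in 4 of 20 (20.0%, against 37.5% of all genes), TATAAA, the TATA box, in 4 of 20 (20.0% against 14.3%) and TGANTCA in 2 of 20 (against 7.82%). The pair of cores CATG with 6 bases between them, a simplified p63 site, stood in 0 of 20 and in 0.57% of all genes. TTTATNG, a simplified Cdx2 site, stood in 3 of 20, namely Fbln1, Postn and Tnc (against 11.3%). These matches describe the letters of the windows and were not tested.

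Each genotype was hybridised on a slide of its own and scanned apart, so slide, scan and genotype cannot be told apart. The median sample signal per array ran from 309.2 to 471.6 intensity units, and no sample spot was saturated. The brightest Trp63 probe had log2 ratios of sample over reference between 3.39 and 4.13 for wild type, near 2.73 for the knockout and of 3.37 and 3.09 for the knockout with Cdx2, and where it lies relative to the deletion is not given. A second Trp63 probe, well above background on all 9 arrays, ran the other way, from 0.16 to 0.73 for wild type, 0.72 to 0.83 for the knockout and 1.13 to 1.43 with Cdx2, so the Trp63 probes do not settle the knockout label. No array had its Cdx2 probe well above background, so the transgene was not checked by it. The 11 squamous epithelium markers were lower in the knockout than in wild type on the log ratio, with 6 past the test, among them Krt14 (−2.22, SE 0.10, limma adjusted p = 0.00024). In the sample channel Krt14 differed by −3.37 (SE 0.13, limma adjusted p = 1.08e-05). Its reference channel was also lower in the knockout, at 8.61 to 8.68 against 9.62 to 10.01 in wild type, although the reference RNA was common. The log ratio difference of Krt14 was thus the smaller one.

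Wild-type esophagus held more RNA of most members than the reference. The mean log2 ratio was above 0 for 29 of the 33 members (87.9%, against 56.2% of all genes) and above 1 for 23 (69.7% against 14.3%), with a median of 1.42 over members and 0.06 over all genes. These ratios are relative to the pool of cell lines and are not levels. Lum, encoding the corneal and connective-tissue proteoglycan lumican, was at 6.33 ± 0.14 (SD, n = 4). Col14a1, whose collagen decorates the surface of fibrils, was at 4.76 ± 0.23, and Postn, the matricellular protein periostin, at 3.55 ± 0.26. These are values of the probe of each gene that was brightest in the sample channel. The other Col14a1 probe, well above background on all 9 arrays, read only 0.26, 0.58, 0.17 and 0.66 in wild type. The 4 members below 0 were Bgn (biglycan, −0.42 ± 0.31), Fn1 (fibronectin, −0.58 ± 0.24), Fbln2 (fibulin-2, −1.11 ± 0.23) and Thy1 (the surface glycoprotein CD90, −1.31 ± 0.25). The second Bgn probe was near 0, at −0.04, 0.14, 0.09 and 0.15.

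Within wild type, replicate 1 had the lowest list median. Its median log2 ratio over the 33 members was 1.20, against 1.69, 1.37 and 1.71 on replicates 2 to 4, and for the 5 fibrillar collagens it was 1.39 against 1.88, 1.92 and 1.92. It was the lowest of the 9 arrays for 6 members, and for 10.4% of all genes. The cartilage markers were also lowest on it, with a median log2 ratio of 0.84 against 2.09, 2.79 and 2.83, and the part this plays in the matrix values was not tested.

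**Figure D1:**
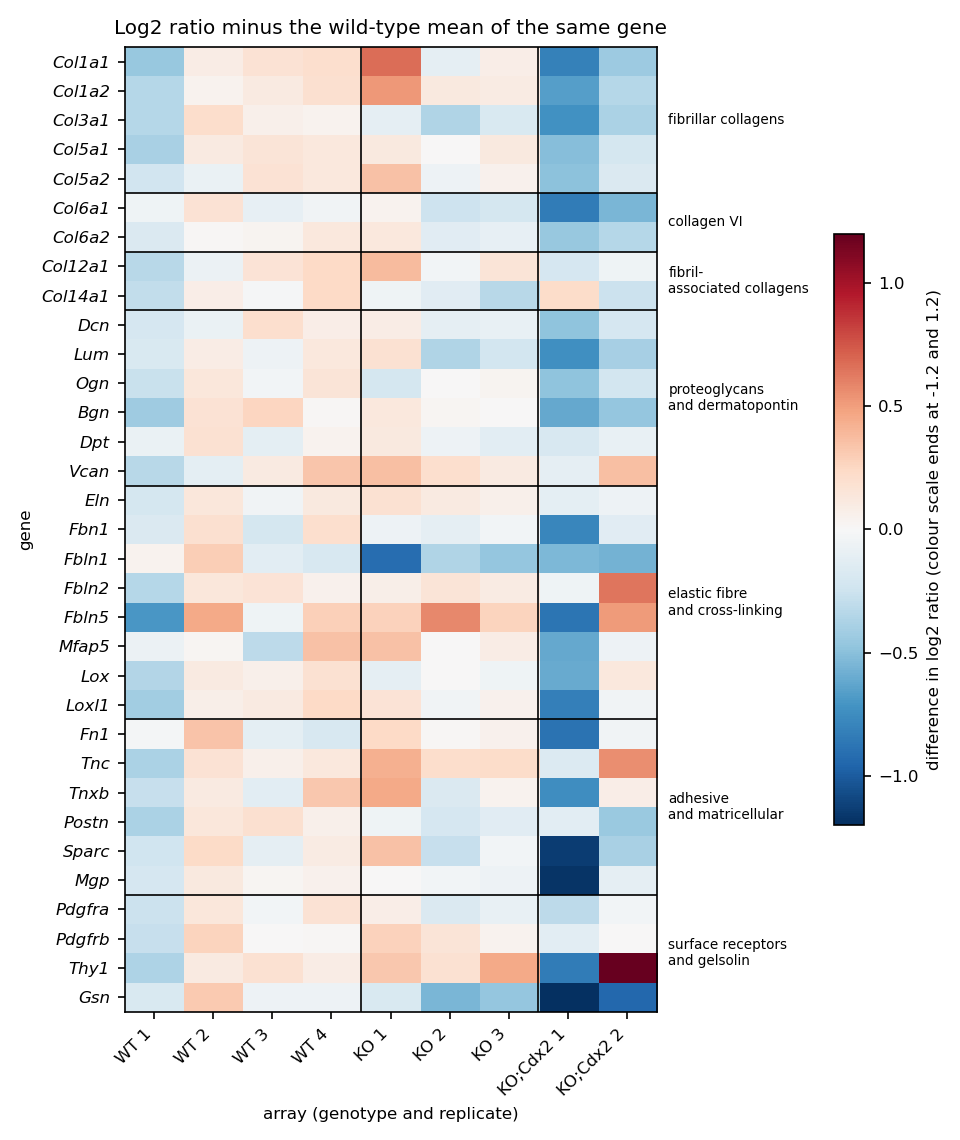
Log2 ratio of each of the 33 members on each of the 9 arrays minus the wild-type mean of the same gene, with genes grouped by role and arrays by genotype. Blue is lower and red is higher than the wild-type mean, and the column of p63 knockout with Cdx2 replicate 1 holds the lowest value of the 9 arrays for 24 of the 33 genes.

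Setting the knockout against wild type asks whether loss of the squamous epithelium's regulator was accompanied by a different supply of matrix RNA. No member passed the test in this comparison. On the log ratio 0 of 33 were called, beside 74 of 22648 genes (0.327%), and 2 members, Fbln1 and Gsn, had an unadjusted p under 0.05, beside 7.78% of all genes. The median difference was 0.05 on the log2 scale over members and 0.02 over all genes, and 15 members were below 0 and 18 above it. With the spread of the log ratios made equal between arrays the member median turned to −0.36, with 26 of 33 below 0. This setting multiplies all log ratios of an array, so lists far from 0 move more than genes near 0. Values over all genes are not given for it, so the shift is not read as particular to the members. On the sample channel 0 of 33 were called beside 1.74% of all genes, with a median of 0.03 and with 2 at an unadjusted p under 0.05, beside 15.9%. Individual log ratio differences ran from −0.58 to 0.38.

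The fibrillar collagens, which form the load-bearing fibrils, had differences from −0.21 (Col3a1) to 0.24 (Col1a2). Col1a2 had log2 ratios of 1.39, 1.77, 1.84 and 1.92 in wild type and 2.25, 1.85 and 1.83 in the knockout. The groups overlapped, and the difference of 0.24 (SE 0.16) had a limma adjusted p of 0.766. Its sign turned to −0.24 when the spread of the log ratios was made equal between arrays.

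Fbln1, encoding fibulin-1 of basement membranes and elastic fibres, had the largest difference. Its log2 ratios were 2.08, 2.34, 1.91 and 1.85 in wild type and 1.13, 1.68 and 1.58 in the knockout. Every knockout array lay below every wild-type array, as it did for 4.56% of all genes, and Fbln1 was the only member of which this held. The difference was −0.58 (SE 0.16, limma adjusted p = 0.34) on the log ratio and −0.73 (SE 0.17, limma adjusted p = 0.0905) in the sample channel, where Fbln1 and Gsn were the 2 members with all knockout arrays below wild type, beside 9.03% of all genes. For Gsn the groups all but met there, at 17.45 on both knockout replicate 1 and wild type replicate 1. The second Fbln1 probe gave −0.60 (SE 0.32), with overlapping values of 1.68, 1.71, 1.49 and 1.42 for wild type and 0.12, 1.65 and 1.16 for the knockout.

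Tnc, the adhesion-modulating glycoprotein tenascin-C, was the 1 member whose knockout arrays all lay above the wild-type arrays, as they did for 5.96% of all genes. It had 0.48, 1.03, 0.92 and 0.99 in wild type and 1.29, 1.07 and 1.08 in the knockout, a difference of 0.29 (SE 0.19, limma adjusted p = 0.766). The gap between 1.03 and 1.07 is smaller than the spread within either group. Fbln5, the fibulin that tethers elastin to cells, differed by 0.38 (SE 0.36), with wild-type values of 0.72, 1.87, 1.37 and 1.71 and knockout values of 1.70, 2.00 and 1.69. The groups overlapped, and without wild type replicate 1, the lowest array, the sample-channel difference was −0.02.

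Gsn encodes gelsolin, which severs and caps actin filaments and is abundant in fibroblasts and smooth muscle. Its log2 ratios were 1.20, 1.69, 1.32 and 1.32 in wild type and 1.20, 0.83 and 0.92 in the knockout, so that the groups touched at 1.20. The difference was −0.40 (SE 0.14, limma adjusted p = 0.522). Col6a1, a chain of the beaded-filament collagen VI, differed by −0.13 (SE 0.11), and its groups overlapped. Thy1 had −1.68, −1.20, −1.13 and −1.22 in wild type and −0.99, −1.13 and −0.86 in the knockout. The groups met at −1.13 and differed by 0.31 (SE 0.49). On the sample channel Thy1 was the 1 member with all knockout arrays above wild type, beside 9.18% of all genes.

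The comparison of p63 knockout with Cdx2 and p63 knockout is between groups whose labels differ by the transgene on a shared knockout background. Most members were lower with the transgene, but no member passed the test on either scale, and no gene at all on the log ratio. On the log ratio 0 of 33 were called beside 0 of 22648 genes (0.0%), and 11 members had an unadjusted p under 0.05, beside 2587 genes (11.4%). The median difference was −0.36 over members and −0.03 over all genes, and 29 of 33 members were below 0, beside 56.2% of all genes. The sample channel had 0 of 33 called beside 0.225% of all genes, 8 at an unadjusted p under 0.05 beside 17.6%, a median of −0.35, and 31 members below 0. For 21 members both transgenic arrays lay below all 3 knockout arrays on the log ratio, as they did for 18.0% of all genes, and for 0 members did they lie above, beside 14.0%. In the sample channel 14 members lay below, beside 16.3%, and 0 above, beside 19.4%.

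All 5 fibrillar collagens were below 0, from −0.84 to −0.34. Col1a1, the main chain of type I collagen, had log2 ratios of 3.14, 2.36 and 2.55 in the knockout and 1.66 and 2.03 with the transgene. The groups did not overlap, and the difference was −0.84 (SE 0.27, limma adjusted p = 0.373). The sample channel differed by −0.23 (SE 0.12), and the reference channel of the same spots was 0.61 higher on the transgenic arrays, although the reference RNA was common to all arrays.

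Col1a2, the partner chain, had 2.25, 1.85 and 1.83 in the knockout and 1.07 and 1.39 with the transgene. The groups again did not overlap, and the difference was −0.75 (SE 0.19, limma adjusted p = 0.362), with −0.35 (SE 0.11) in the sample channel and 0.39 in the reference channel. The second Col1a2 probe differed by −0.24 (SE 0.24).

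Both collagen VI chains were below 0. Col6a1 had 0.73, 0.44 and 0.48 in the knockout and −0.15 and 0.14 with the transgene, a gap without overlap and a difference of −0.55 (SE 0.13, limma adjusted p = 0.362). Col6a2 differed by −0.36 (SE 0.12). Of the fibril-associated collagens, Col12a1 differed by −0.29 (SE 0.18) and Col14a1 by 0.15 (SE 0.19). The second Col12a1 probe gave −0.85 (SE 0.23), and the second Col14a1 probe had the opposite sign, at −0.17 (SE 0.15).

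All 5 proteoglycans and dermatopontin, which coat collagen fibrils or fill the space between them, were below 0, from −0.59 to −0.10. Bgn had −0.29, −0.40 and −0.42 in the knockout and −1.03 and −0.88 with the transgene. Its groups did not overlap, with a difference of −0.59 (SE 0.19, limma adjusted p = 0.37), but its second probe, at 0.06 (SE 0.12), did not share that difference. The structural proteoglycans Lum (−0.43, SE 0.18), Dcn (decorin, −0.31, SE 0.14) and Ogn (osteoglycin, −0.30, SE 0.15) also had no overlap between the groups on the log ratio. In the sample channel the groups overlapped for each of them. The second Dcn probe differed by −0.04 (SE 0.23), with overlapping groups.

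Of the 8 elastic fibre and cross-linking genes 6 were below 0. Loxl1, an enzyme that cross-links elastin, differed by −0.49 (SE 0.25), Mfap5, a microfibril glycoprotein, by −0.48 (SE 0.22) and Fbn1, the fibrillin of microfibrils, by −0.39 (SE 0.20). Eln, elastin itself, differed between the scales. Its sample channel stood at 14.07, 14.14 and 13.67 in the knockout and 11.14 and 13.25 with the transgene, a difference of −1.77 (SE 0.64, limma adjusted p = 0.217), while its reference channel differed by −1.56 and the log ratio by −0.20 (SE 0.12). On every array the reference channel of Eln was low or high with its sample channel, although the reference RNA was common.

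Sparc and Mgp differed widely between the 2 transgenic arrays. Sparc, the collagen-binding protein osteonectin, had 1.61, 0.98 and 1.23 in the knockout and 0.12 and 0.87 with the transgene, a difference of −0.77 (SE 0.26, limma adjusted p = 0.377). Its second probe gave −0.62 (SE 0.20). Without transgenic replicate 1 the Sparc difference was −0.40 on the log ratio and −0.12 in the sample channel, and without replicate 2 it was −1.15 and −1.05. Mgp, the matrix Gla protein that inhibits calcification, had 3.40, 3.37 and 3.34 in the knockout but 2.22 and 3.29 with the transgene. The second transgenic array was thus close to the knockout and the first far below it, and the difference was −0.62 (SE 0.26, limma adjusted p = 0.427). Without the first array the Mgp difference was −0.08 on the log ratio and 0.15 in the sample channel. Without the other array it was −1.83 in the sample channel. Each of these fits leaves 1 transgenic array, so only differences are given for them.

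Gsn had 1.20, 0.83 and 0.92 in the knockout and 0.17 and 0.44 with the transgene. No array overlapped, and the difference was −0.68 (SE 0.17, limma adjusted p = 0.362). The sample channel gave −0.48 (SE 0.13, limma adjusted p = 0.144).

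The PDGF receptors, through which fibroblasts are driven to divide, differed by −0.11 (Pdgfra, SE 0.15) and −0.23 (Pdgfrb, SE 0.15). Thy1 was split between the transgenic arrays, at −2.15 on replicate 1 and 0.38 on replicate 2, with knockout values of −0.99, −1.13 and −0.86 between them. Its second probe split the same way, at −2.08 and 1.51. Thy1 also marks thymocytes and neurons, and the lymphocyte genes Rag1 and Dntt, picked after their values were seen, were higher on replicate 2 as well: the sample channel of Rag1 was 6.64 and 12.94 and that of Dntt 7.44 and 9.77. Cd3e, the T-cell marker of the immune list, differed less, at 7.67 and 8.08. Over the 11 immune markers the summed sample signal was 15.62 and 17.11 on a log2 scale, within the wild-type range of 16.10 to 18.09 only for replicate 2. Their part in the Thy1 values was not tested. Without transgenic replicate 1, which leaves 1 array in that group, Thy1 differed from wild type by 1.69.

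**Figure D2:**
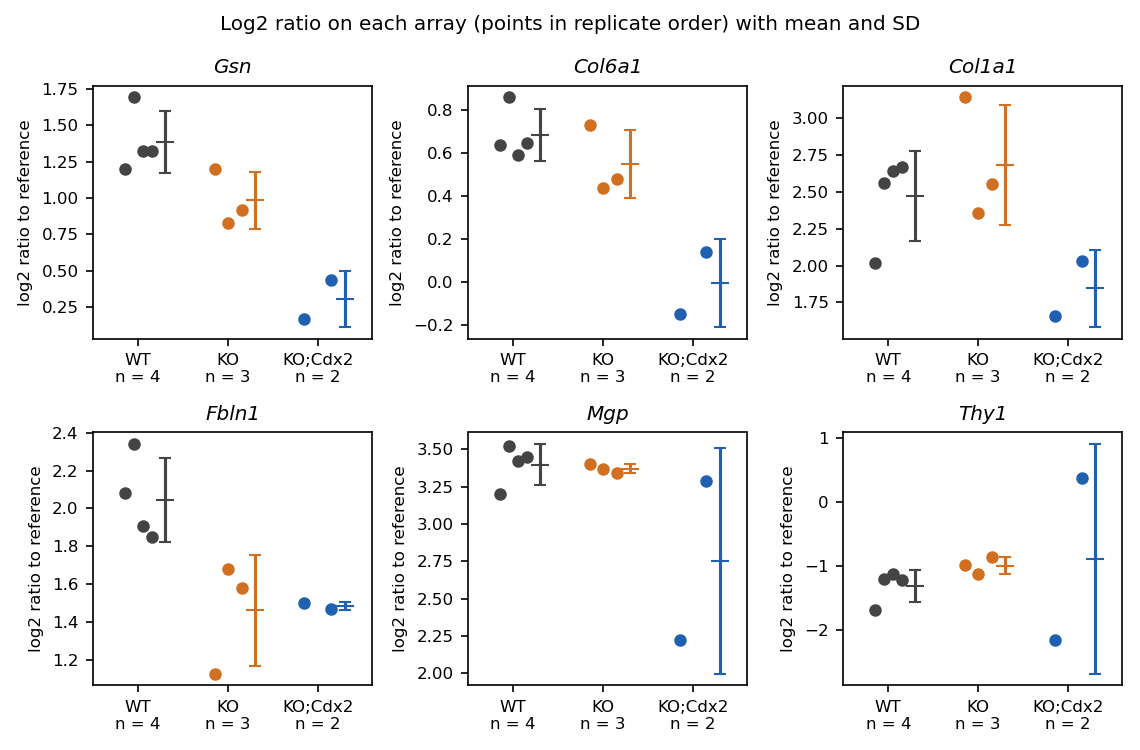
Log2 ratio of sample over reference on each array for Gsn, Col6a1, Col1a1, Fbln1, Mgp and Thy1, with the mean and SD of each genotype (n = 4, 3 and 2). Gsn and Col6a1 are lowest on both arrays of the knockout with Cdx2, while Mgp (2.22 and 3.29) and Thy1 (−2.15 and 0.38) differ between those arrays by more than among the other 7.

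Of the 2 transgenic arrays, replicate 1 was the lower for most members. It held the lowest log2 ratio of the 9 arrays for 24 of the 33 members, and for 18.9% of all genes. Of the 33 members 30 were lower on it than on replicate 2, with a median difference of −0.33, while 48.3% of all genes were lower on it, with a median of 0.01. Without replicate 1 the median member difference against the knockout was −0.16 with 25 of 33 below 0, and without replicate 2 it was −0.59 with 31 below 0.

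Other lists also differed between the 2 transgenic arrays, in either direction. The median log2 ratio of the 13 cartilage markers was 1.14 on replicate 1 and 2.08 on replicate 2, against 1.73 to 2.58 in the knockout, and that of the 11 adipocyte markers was 0.10 and 1.76 against 0.67 to 3.55. Of these adipocyte markers 7 were well above background on all 9 arrays. The summed sample signal of the 12 simple and airway epithelium markers was 17.20 and 19.11 on a log2 scale, against 18.57 to 19.06 in the knockout. Median log2 ratios were higher on replicate 1 for endothelium and pericyte (3.33 and 3.01) and skeletal muscle (2.86 and 2.50). The same held for smooth muscle (2.50 and 2.33) and proliferation (−0.11 and −0.46). Their part in the matrix values was not tested.

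The comparison of p63 knockout with Cdx2 and wild type combines both changes. Gsn and Col6a1 fell, and no member rose. The 2 called members of 33 stood beside 319 of 22648 genes (1.41%), of which 220 (0.971%) were lower. The median difference was −0.34 over members and −0.00 over all genes, 29 of 33 members were below 0 beside 50.8% of all genes, and 14 had an unadjusted p under 0.05 beside 18.1% of all genes. With the spread made equal between arrays the member median was −0.66, without a value over all genes beside it, and 0 members passed. For the sample channel 1 member, Gsn, was called, beside 2.42% of all genes in either direction and 1.54% lower, and 10 had an unadjusted p under 0.05, beside 20.8%. Both transgenic arrays lay below all 4 wild-type arrays for 9 members on the log ratio, as they did for 13.8% of all genes, and above them for 0, beside 13.9%. In the sample channel these counts were 9, beside 14.1%, and 0, beside 17.0%.

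Gsn stood at 1.20, 1.69, 1.32 and 1.32 in wild type and at 0.17 and 0.44 in the knockout with Cdx2. It fell by 1.08 on the log2 ratio scale (SE 0.16, limma adjusted p = 0.0278), with both transgenic arrays below every other array of the series. In the sample channel it had 17.45, 17.72, 17.48 and 17.46 in wild type against 16.76 and 16.82, and it fell by 0.74 (SE 0.12, limma adjusted p = 0.0239), the rest being a reference channel 0.34 higher on the transgenic arrays. The call on the log ratio was lost when any one of wild type replicates 2 and 4, knockout replicate 3 or either transgenic array was left out, with differences of −1.21 to −0.95 over the 9 such fits, and that in the sample channel without wild type replicates 2 or 4 or either transgenic array. The log ratio call was also lost with equal spread between arrays (limma adjusted p = 0.124), with only the 2 groups in the fit (0.0768) and with the replicate number as a block (0.26).

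Col6a1 had 0.64, 0.86, 0.59 and 0.65 in wild type and −0.15 and 0.14 in the knockout with Cdx2. The groups did not overlap, and it fell by 0.69 (SE 0.13, limma adjusted p = 0.0475). The sample channel differed by −0.71 (SE 0.15, limma adjusted p = 0.0573) and the reference channel by −0.03. This call lay at the threshold: it held in 1 of 9 fits that left out an array, the one without knockout replicate 1, and was lost with equal spread (limma adjusted p = 0.0819), with only the 2 groups (0.0983), with the replicate block (0.278), under median centring (0.055), with probes above background on all 9 arrays (0.0501), with the scanner software's processed signals (0.059) and in the authors' deposited value table refitted the same way (−0.61, 0.0591). In both of the last fits Col6a2 passed instead, at −0.53 (limma adjusted p = 0.0476). On the log ratio as fitted here, the partner chain Col6a2 had 1.10, 1.28, 1.30 and 1.40 in wild type and 0.82 and 0.93 with the transgene, without overlap, and differed by −0.39 (SE 0.11, limma adjusted p = 0.126).

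Gsn is also abundant in smooth muscle, most of whose markers were below 0 in knockout with Cdx2 minus wild type. Of 12 markers 0 passed the test on the log ratio, beside 1.41% of all genes, with a median of −0.36. Below 0 were 11 of 12, beside 50.8% of all genes, and 6 had an unadjusted p under 0.05, beside 18.1%. Their median log2 ratio was 2.50 and 2.33 on the transgenic arrays, within the wild-type range of 2.31 to 2.70. From the knockout the median difference was −0.14. Wild-type arrays had summed sample signals of 18.64 to 19.47, knockout arrays of 18.30 to 18.43, and the transgenic arrays of 18.15 and 18.46 (log2). Their part in the Gsn and Col6a1 values was not tested.

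Of the other members, Sparc had 1.02, 1.49, 1.15 and 1.36 in wild type against 0.12 and 0.87, a difference of −0.76 (SE 0.25, limma adjusted p = 0.159) without overlap. Mgp had 3.20, 3.52, 3.42 and 3.45 against 2.22 and 3.29, which overlap, and differed by −0.65 (SE 0.25, limma adjusted p = 0.217). Col1a1 had 2.02, 2.56, 2.64 and 2.67 against 1.66 and 2.03, which overlap at wild type replicate 1, and differed by −0.63 (SE 0.25, limma adjusted p = 0.246). For all 3 the first transgenic array was the lower one. Without it Sparc differed by −0.38 and Mgp by −0.11, and without the other by −1.14 and −1.18. Each of these fits leaves 1 transgenic array.

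Lum had 6.15, 6.42, 6.27 and 6.46 in wild type against 5.59 and 5.93. These do not overlap, and the difference was −0.56 (SE 0.17, limma adjusted p = 0.138), with −0.76 (SE 0.18, limma adjusted p = 0.0749) in the sample channel. Bgn, with −0.85, −0.25, −0.16 and −0.41 in wild type against −1.03 and −0.88, differed by −0.54 (SE 0.18, limma adjusted p = 0.164) without overlap, passed among the 9 fits that left out an array only without wild type replicate 1 (−0.68, limma adjusted p = 0.0467), and had a second probe at 0.23 (SE 0.11). Fbln1 had 1.50 and 1.47 with the transgene and differed from wild type by −0.56 (SE 0.18), the same side as in the knockout alone. The 4 members above 0 were Vcan (0.12, SE 0.20), Fbln2 (0.29, SE 0.20), Tnc (0.20, SE 0.22) and Thy1 (0.42, SE 0.56), none of them past the test.

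**Figure D3:**
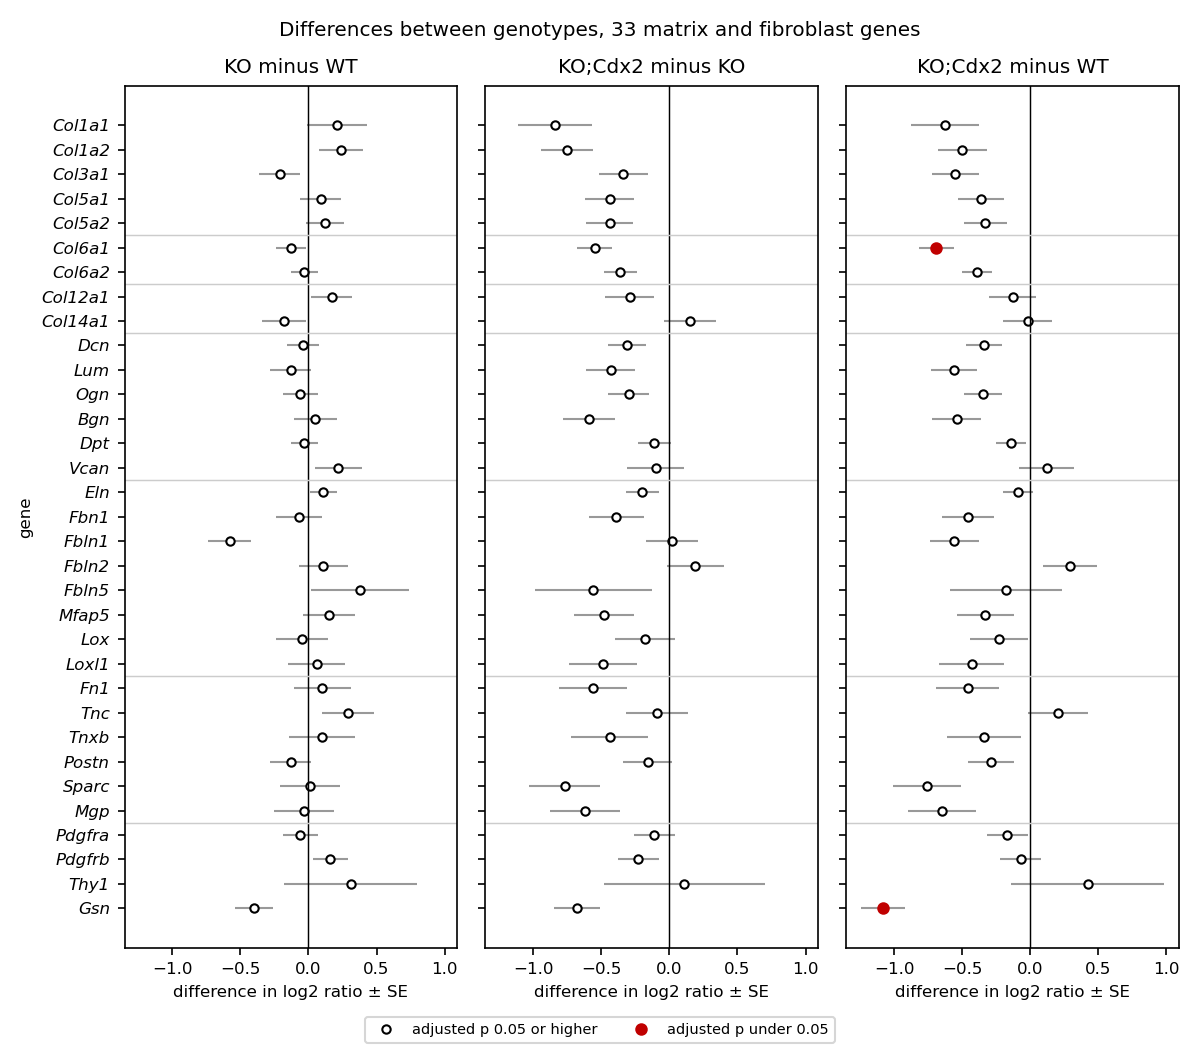
Difference in log2 ratio with its standard error for each of the 33 members in the 3 comparisons, ordered by role. Filled red points passed the limma test at an adjusted p under 0.05: Gsn (−1.08) and Col6a1 (−0.69) in knockout with Cdx2 minus wild type, and no other.

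The comparisons share samples, so their values are given side by side and were not correlated. Gsn lay at −0.40 in knockout minus wild type and −0.68 in the step from knockout to knockout with Cdx2, and Col6a1 at −0.13 and −0.55. Fbln1 had the opposite order, at −0.58 and 0.02. For the 19 members with more than 1 kept probe, the other 25 probes had the sign of the brightest probe in 20, 19 and 19 cases in the 3 comparisons.

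Before secretion, collagen chains are folded and modified by dedicated enzymes. Of 23 genes for collagen folding, modification and processing, 0 passed on the log ratio in knockout minus wild type, 0 in knockout with Cdx2 minus knockout (median −0.25, 21 of 23 below 0) and 1 fell in knockout with Cdx2 minus wild type (median −0.28, 19 of 23 below 0). That gene was Plod2, a lysyl hydroxylase that prepares collagen for cross-linking, at −0.76 (SE 0.10, limma adjusted p = 0.0167). For the sample channel Plod2 was the 1 gene to pass in either comparison with wild type, at −0.63 (SE 0.09, limma adjusted p = 0.0147) in the knockout and −0.74 (SE 0.11, limma adjusted p = 0.0149) in the knockout with Cdx2. Pcolce, an enhancer of procollagen trimming, had the lowest log ratio p of this list against the knockout, at −0.86 (SE 0.18, limma adjusted p = 0.362). Over all genes, 0.327%, 0.0% and 1.41% were called on the log ratio in the 3 comparisons, and 1.74%, 0.225% and 2.42% in the sample channel. Below 0 on the log ratio were 43.6%, 56.2% and 50.8% of all genes. The same shares stand beside the lists that follow. For Plod2 and the genes of those lists, fits under other settings or without an array are not given.

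Of 31 other collagens, proteoglycans and microfibril proteins, 27 were below 0 on the log ratio in knockout with Cdx2 minus wild type. The 1 gene of them that fell was Hspg2, the basement membrane proteoglycan perlecan (−0.81, SE 0.15, limma adjusted p = 0.0475), a call at the threshold. The 1 gene of this list that passed in the sample channel was Col8a1, a short-chain collagen, at −2.06 (SE 0.39, limma adjusted p = 0.038). None of 20 matrix proteases and inhibitors passed on the log ratio, with 18 of 20 below 0. Timp2, an inhibitor of matrix metalloproteinases, was at −1.17 (SE 0.26, limma adjusted p = 0.0757) there and passed in the sample channel, at −0.87 (SE 0.17, limma adjusted p = 0.0413), as the 1 gene of its list.

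Of 15 genes of TGF-beta and PDGF signalling 1 fell on the log ratio against wild type in the knockout with Cdx2, the growth factor Pdgfc (−0.62, SE 0.09, limma adjusted p = 0.0218), which also fell in the sample channel (−0.55, SE 0.09, limma adjusted p = 0.0215). In the knockout alone it lay at −0.45 (SE 0.08, limma adjusted p = 0.0747) on the log ratio and fell in the sample channel, at −0.62 (SE 0.08, limma adjusted p = 0.0058). Of 14 fibroblast transcription factors 1 fell against wild type in the knockout with Cdx2, the mesenchymal regulator Osr1, at −0.97 (SE 0.10, limma adjusted p = 0.00737) on the log ratio and −0.96 (SE 0.10, limma adjusted p = 0.00325) in the sample channel. Osr1 lay at −0.15 (SE 0.09) on the log ratio in the knockout alone. In the step to the knockout with Cdx2 it lay at −0.83 (SE 0.10, limma adjusted p = 0.354) on the log ratio and fell by 0.78 (SE 0.10, limma adjusted p = 0.031) in the sample channel, while the list's log ratio median in that step was −0.03 with 7 of 14 below 0.

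The 10 proliferation markers lay higher with the transgene, with 0 of them past the test on the log ratio. Pcna, the sliding clamp of DNA replication, rose against wild type in the sample channel (0.84, SE 0.16, limma adjusted p = 0.0418), as the 1 of 10 to pass there. Their median log ratio difference was 0.68 from the knockout and 0.73 from wild type, with 10 of 10 above 0 in both, and the 2 transgenic arrays had list medians of −0.11 and −0.46 against −1.07 to −0.72 in wild type and −1.32 to −0.58 in the knockout. The 12 endothelium and pericyte markers, a stromal type that is not fibroblast, had median differences of −0.13 and 0.06. Their part in the matrix values was not tested.

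**Figure D4:**
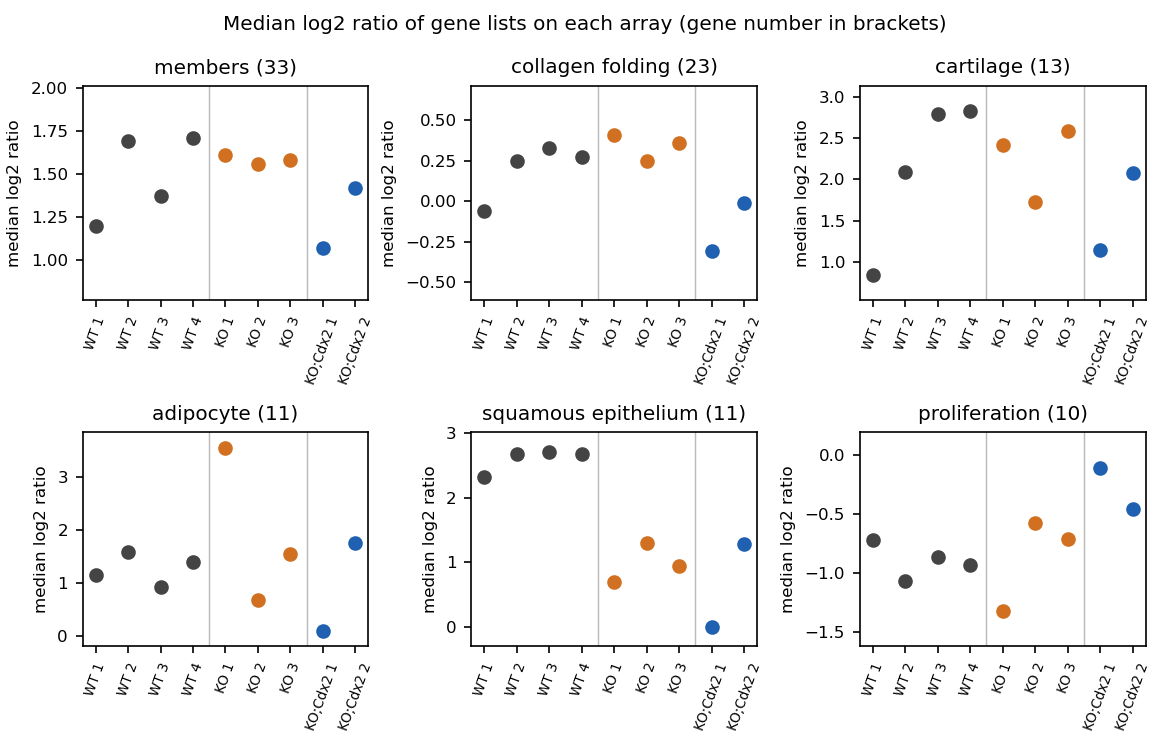
Median log2 ratio on each array of the 33 members and of lists for collagen folding, cartilage, adipocytes, squamous epithelium and proliferation, with arrays grouped by genotype and a separate axis range in each panel. The members are lowest on p63 knockout with Cdx2 replicate 1 (1.07) and wild type replicate 1 (1.20), and the proliferation markers are highest on both arrays of the knockout with Cdx2.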

How the data were processed

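The sample and reference signals are deposited intensity values, 1 scanner file per array, from Agilent Feature Extraction: version 9.1 per the submitters' processing notes, version 10.7.3.1 per the file headers. The log10 ratio that each file holds per the file headers (processed red over green) was not used itself. The log2 ratio of the same processed signals was fitted as an alternative. The authors also deposited a value table, used as an alternative and read as log2 ratios from its values; its columns correlated with the log ratios used here at r of 0.77 to 0.895, with medians of −0.213 to −0.028, and its centring is not given in the sources used here. In limma 3.58.1 (R 4.3.3), mean and local median background signals were corrected by normexp (offset 50) and normalised by loess within arrays. Control and outlier spots were left out, the spots of a probe averaged, and the brightest probe taken per gene. Of 41174 probes 33750 were kept. The sample channel was taken after Aquantile between arrays. A single model over the 9 arrays was fitted to each scale, with Benjamini-Hochberg adjustment over 22648 genes at 0.05. The fit was tested on simulated data. The number of arrays limits the precision.

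Values are given on every array for members that passed in any comparison and for the 6 with the largest log ratio difference in each. Others were summarised by role, and passing genes, or the gene with the lowest p, were named for some of the other lists only. Among those left out, Pkp1 (−3.04), Ctsg (1.74) and Ms4a3 (1.77) passed on the log ratio in knockout minus wild type. Ctsg (1.17) and Ms4a3 (1.37), both immune markers, also passed in knockout with Cdx2 minus wild type. No immune marker passed in the sample channel. The skeletal muscle and the enteric neuron and glia lists had no passing gene on either scale. Further members named in the text were picked after their values were seen. The members and all lists were chosen with earlier results of these data known. Alternatives were a different background correction, normalisation, filter, probe summary, variance prior, set of groups, the replicate number as a block, each array left out, and equal spread between arrays. The labels number the replicates without saying that a number marks a shared litter or day.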

Additional observations from a re-analysis of the deposited data

Results flagged for a closer look

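In groups of 4 arrays, 32 sets of wild-type values were searched for an array far from the other 3, a search in which chance marks about 1 group in 20, and 5 were found. On the log2 ratio, Col1a1 on wild type replicate 1 was 2.02 against 2.56 to 2.67 on the others, and the median of the 5 fibrillar collagens there was 1.39 against 1.88 to 1.92. In the sample channel, replicate 1 stood apart for Col1a1 (17.43 against 17.68 to 17.72) and Thy1 (12.19 against 12.69 to 12.78). Gsn stood apart on replicate 2 in the sample channel, at 17.72 against 17.45 to 17.48.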

How the results depend on the processing

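Aquantile leaves log ratios as they are by construction. Of the alternatives other than leaving out arrays, all kept the counts of called members within 1.5 times and the medians within the replicate spread of 0.21, except these. With the processed signals and with the authors' table the count stayed at 2, with Col6a2 in place of Col6a1. These fits gave the same differences, −1.09 for Gsn and −0.53 for Col6a2, so they are not taken as separate alternatives. Against wild type, the knockout with Cdx2 had 2 called members on the log ratio, but 1 with median centring and with probes above background on all 9 arrays, and 0 with only the 2 groups, with the replicate block and with equal spread between arrays. In the sample channel the count went from 1 to 0 with the replicate block. Equal spread, chosen after seeing the data, moved the median member difference to −0.36 for knockout minus wild type (26 of 33 below 0, against 15) and to −0.66 for knockout with Cdx2 minus wild type, and turned Col1a2 in knockout minus wild type to −0.24. The medians over all genes under equal spread are not given. The scanner software's processed signals turned Col1a2 in the sample channel to −0.16.

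Leaving out each wild-type or knockout array in turn gave 0 to 2 called members on the log ratio for knockout with Cdx2 minus wild type. In the sample channel it gave 0 to 4, and against the knockout 0 on either scale. Leaving out a transgenic array leaves 1 in that group, so only differences are given. Against wild type, Thy1 differed by 1.69 without transgenic replicate 1 and Mgp by −1.18 without replicate 2, both on the log ratio. Without wild type replicate 1 Bgn was also called in the sample channel, and in place of Col6a1 on the log ratio. The 4 called without knockout replicate 1 were Gsn, Col6a1, Col6a2 and Fbln1. Over all 9 fits that left out an array, median differences ranged from −0.07 to 0.09 for knockout minus wild type. They ranged from −0.59 to −0.16 for knockout with Cdx2 minus knockout and −0.60 to −0.15 for knockout with Cdx2 minus wild type. Sample-channel differences that changed sign were Fbln5 in the knockout (−0.02 to 0.41 over the 9 fits, lowest without wild type replicate 1) and Mgp (−1.83 to 0.15 from the knockout and −1.76 to 0.21 from wild type, highest without transgenic replicate 1). The cause of these changes was not tested.

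Arrays with the same number did not consistently deviate together (r of −0.133 to 0.188), so the replicate block is given as a setting and not as a pairing. With it 8 genes in all were called against wild type on the log ratio, and 35 in the sample channel. The 33 measured members were well above background on all 9 arrays.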
